A study of Mus musculus with 9 samples.

Results

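A group of 10 genes that low oxygen is classically known to induce outside the glycolytic pathway was followed across cultured mouse macrophages: Ankrd37, Ndrg1, Ero1l, Ak4, Ier3, Bhlhe40, Higd1a, Narf, Mif and Rora. They were taken by name, with earlier results of these data known. All 10 were found among the 34866 Ensembl gene identifiers of the tables by their symbols. The cells were primary macrophages kept in alpha-MEM to which serum and L929-conditioned medium had been added, the latter a source of macrophage growth factor from a fibroblast line. The tissue, strain and genotype of the animals are not given in the labels. There were 3 libraries from 7 days at standard oxygen, 3 from standard oxygen followed by 3 hours at 1% (acute hypoxia), and 3 from 7 days at 1% (chronic hypoxia). The labels call these biological replicates and do not say how the cultures were kept apart.

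Cells sense oxygen through prolyl hydroxylases that mark the alpha subunits of hypoxia-inducible factor (HIF) for destruction. When oxygen is short, the subunits persist, pair with their beta partner and bind a short core sequence near genes of many functions. Macrophages, which work in poorly perfused tissue, are known for a strong response of this kind.

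Expression is given in TPM as the authors deposited it, which is each gene's length-corrected share of a library, so levels can be compared between genes. The sequencing depth is unknown. Digits in the sample descriptions, whose meaning is not stated, link 1 library of each group and are called codes X, Y and Z here. Codes X, Y and Z were on replicates 1, 3 and 2 of standard oxygen and on replicates 1, 2 and 3 of both hypoxic groups. The 3 libraries of code Z stood apart from the other 6 on the first principal component, which held 36.9% of the variance. A list of 10 macrophage markers summed to 56630 to 75290 TPM in every library. Nearly all of this was Lyz2 (52790 to 70400 TPM), so the sum says little of the other markers. Mertk was 2.21 to 3.37 TPM with code Z and 21.8 to 33.3 TPM otherwise. C1qa was 0.910 to 3.41 TPM with code Z and 65.3 to 443 TPM otherwise. All 6 stromal, 5 dendritic cell, 4 mast cell and 3 B cell markers stayed under 1 TPM in every library. Of 7 granulocyte markers 4 stayed under 1 TPM throughout, and the list's sum, nearly all S100a8, was 898.5 to 1595 TPM in standard oxygen, 940.5 to 1908 in acute and 260 to 584.5 in chronic hypoxia. This sum was lowest in chronic hypoxia, where the members were high, and its part in the results was not tested. T cell, erythroid and osteoclast lists had 2 of 3, 2 of 3 and 2 of 4 markers under 1 TPM throughout. The osteoclast sum, mostly Ctsk, was 35.3 to 52.9 TPM with code Z and 8.44 to 13.9 TPM otherwise. Ctsk alone was 33.9 to 51.0 TPM with code Z, while Acp5 was 0.539 to 1.92 TPM over all libraries. In bulk RNA a change in the share of cells of a type and a change in RNA per cell cannot be told apart.

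The starting regions of the members are shown because the core sequence bound by HIF can be read in them. RefSeq (GRCm38.p6) gave a window from 250 bases before to 50 bases after the start for 8 of the 10 members. Ndrg1 and Bhlhe40 were not matched. The letters ACGTG or GCGTG were searched on both strands, so that CACGT and CACGC count as well. Of the 8 members, 7 held ACGTG, 6 held GCGTG and 8 held at least 1 of them. Among 27025 genes with such windows the shares were 21.8%, 35.2% and 46.7%. Below, the 250 bases before the start are printed 5′ to 3′ on the gene's own strand for the 6 tested members with a match there, with these letters in capitals.
Ankrd37, chr8:45999851-46000100, minus strand: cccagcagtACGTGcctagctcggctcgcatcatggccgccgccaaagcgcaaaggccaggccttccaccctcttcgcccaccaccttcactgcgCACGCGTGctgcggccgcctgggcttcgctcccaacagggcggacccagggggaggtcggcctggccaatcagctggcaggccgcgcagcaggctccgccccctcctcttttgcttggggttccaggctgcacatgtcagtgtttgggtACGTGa
Ero1l (Ero1a in RefSeq), chr14:45318573-45318822, minus strand: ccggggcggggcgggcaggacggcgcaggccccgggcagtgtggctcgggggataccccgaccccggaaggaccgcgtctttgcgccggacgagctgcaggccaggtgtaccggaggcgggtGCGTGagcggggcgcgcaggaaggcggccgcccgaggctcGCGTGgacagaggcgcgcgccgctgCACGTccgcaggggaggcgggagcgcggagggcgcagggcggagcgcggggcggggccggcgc
Ak4, first of 4 starts, chr4:101419039-101419288, plus strand: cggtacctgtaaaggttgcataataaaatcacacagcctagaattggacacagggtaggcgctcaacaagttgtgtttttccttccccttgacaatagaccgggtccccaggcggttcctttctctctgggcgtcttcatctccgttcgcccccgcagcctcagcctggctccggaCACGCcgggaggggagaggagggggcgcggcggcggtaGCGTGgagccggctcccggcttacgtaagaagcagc
Ier3, chr17:35821463-35821712, plus strand: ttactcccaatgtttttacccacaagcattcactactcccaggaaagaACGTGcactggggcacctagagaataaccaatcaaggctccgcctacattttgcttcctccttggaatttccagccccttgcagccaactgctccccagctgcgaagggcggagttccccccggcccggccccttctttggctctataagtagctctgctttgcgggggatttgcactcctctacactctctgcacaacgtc
Higd1a, chr9:121857797-121858046, minus strand: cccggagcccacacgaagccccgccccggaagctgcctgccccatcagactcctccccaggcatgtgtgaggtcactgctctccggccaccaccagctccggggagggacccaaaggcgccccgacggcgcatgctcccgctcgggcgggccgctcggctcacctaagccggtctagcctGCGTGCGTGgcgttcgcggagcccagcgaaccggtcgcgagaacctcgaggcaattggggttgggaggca
Narf, chr11:121236986-121237235, plus strand: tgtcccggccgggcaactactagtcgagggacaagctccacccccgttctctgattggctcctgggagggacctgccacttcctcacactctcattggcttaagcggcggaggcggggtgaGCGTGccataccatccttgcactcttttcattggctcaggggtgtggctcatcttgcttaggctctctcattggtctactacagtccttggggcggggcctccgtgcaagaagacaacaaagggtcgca
Ankrd37 held ACGTG at -241 and again at -6, where a position counts from the first letter of the match to the start site. Higd1a carried 2 GCGTG copies 4 bases apart, at -70 and -66, and Ier3 held a single ACGTG at -202. The Mif window held CACGT only after the start, at position 30. The E-box CACGTG, which contains ACGTG on both strands and is known as the sequence that Bhlhe40 binds, was in the window of the fourth Ak4 start and of no other member, against 8.1% of genes. A match of letters is a description of these windows and not evidence of binding.

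The members covered a wide range of levels. In standard oxygen Mif was highest at 777 ± 293 TPM, followed by Ero1l at 75.9 ± 10.9 TPM (SD, n = 3). Ier3, Higd1a, Ankrd37, Bhlhe40 and Ndrg1 lay between 20.1 and 25.2 TPM, and neighbours in this order differed by less than the SD of either. Higd1a was nevertheless above Bhlhe40 in all 3 libraries, by a mean gap larger than either SD. Narf at 8.38 ± 0.484 TPM, Ak4 at 4.43 ± 6.06 TPM and Rora at 0.717 ± 0.468 TPM came last (SD, n = 3). By group means the order at both ends was kept across all groups, with Mif above and Rora below every other member. In single libraries it was not, as Rora was above Ak4 in standard oxygen with code Y (1.12 against 1.01 TPM).

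**Figure D1:**
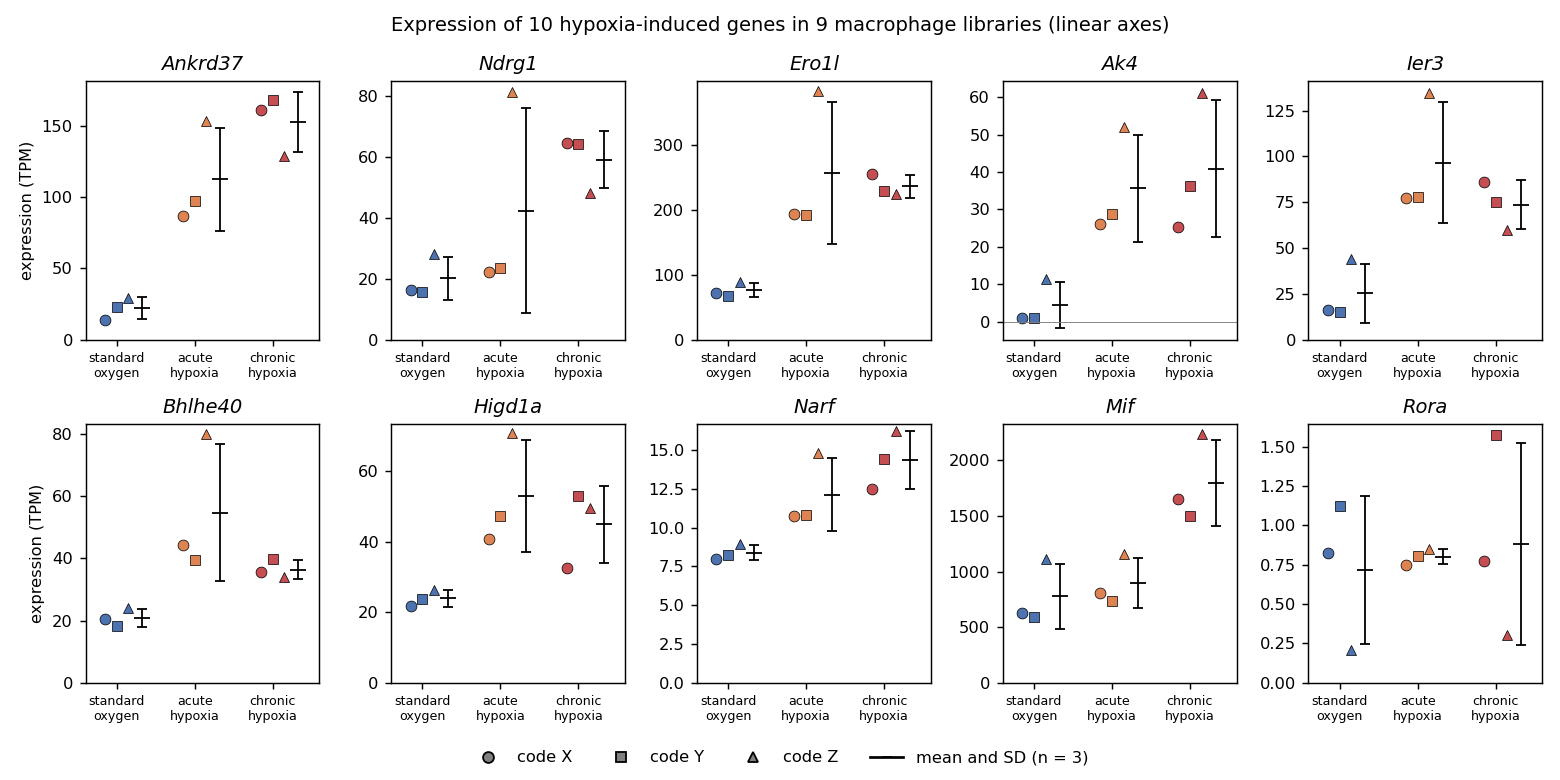
Expression of each member (TPM, linear axes that differ between panels) in the 9 libraries, grouped by oxygen exposure, with circles, squares and triangles for codes X, Y and Z and a bar for the mean and SD of 3 libraries. In acute hypoxia the triangle is the highest point in all 10 panels, and in 9 panels every chronic hypoxia point lies above every standard oxygen point.

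After 3 hours of 1% oxygen most members stood higher. The question of this comparison is which of them respond within hours. Of the 9 members with a mean of at least 1 TPM, which were tested, all 9 were higher in acute hypoxia than in standard oxygen within each of the 3 codes, as were 20.9% of all genes tested. In 7 of the 9 the groups did not overlap, against 7.63% of all genes. The median difference of the members was 1.29 in log2(TPM + 1), a scale that understates changes of low values, beside 0.01 for all genes. With calls made in limma at a Benjamini-Hochberg adjusted p under 0.05, 0 of the 9 passed with no block, where 0.0273% of all genes did and 0.0182% were called higher. At an unadjusted p under 0.05 there were 7 of 9, beside 7.14% of all genes. The block by the replicate number of the titles gave the same counts of 0 and 7, beside 0 and 5.27% of all genes. With the sample code as a block Ankrd37, Ero1l, Ier3, Bhlhe40 and Higd1a rose, 5 of 9 beside 0.655% of all genes called higher. Adding a median-of-ratios rescaling between libraries left 3 (Ankrd37, Ero1l and Ier3), beside 0.501%. Rescaling with no block gave 1 of 9 (Ankrd37), beside 0.173% called higher and 0.0182% lower. Without the libraries of code Z 6 of 9 passed (those 5 and Ak4), beside 2.07% of all genes called higher. Here and below, fits without code Z rest on 2 libraries per group, and code Z is the code that stood apart in these same data.

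After 7 days of 1% oxygen all 9 tested members stood above standard oxygen. The groups did not overlap in 9 of 9, against 24.2% of all genes, and 9 were higher in all 3 codes, against 46.9%. Here the median difference was 1.54 beside 0.16 for all genes (log2). In limma with no block Ankrd37, Ero1l, Ndrg1, Bhlhe40 and Narf rose, 5 of 9 where 2.69% of all genes were called, 2.1% higher and 0.596% lower. At an unadjusted p under 0.05 there were 9 of 9, beside 22.9% of all genes. With median-of-ratios rescaling, which moved the median of all genes from 0.16 to 0.003, the members' median was 1.37 and 3 of 9 passed (Ankrd37, Ero1l and Ndrg1), beside 0.986% of genes called higher and 1.02% called lower. With the code as a block 8 of 9 passed, all but Ier3, where 15.1% of all genes were called higher. Rescaling together with this block left 7, without Bhlhe40, beside 5.68%. Without code Z, where Rora was tested too, 8 of 10 passed, all but Higd1a and Rora, beside 17% of all genes. The block by the replicate number of the titles gave 0 of 9 in limma, beside 0.00904% of all genes, with 9 of 9 at an unadjusted p under 0.05, beside 17.5%. Leaving out single libraries lowered the count from 5 to 1 without standard oxygen replicate 1 or 3 or chronic replicate 1, and to 0 without chronic replicate 2. Dropping the filter or the trend ended the calls of Ndrg1, Bhlhe40 and Narf, with adjusted p-values of 0.0505 to 0.0958, while a fit of all 9 samples ended those of Ndrg1 and Bhlhe40 and added Ak4, Ier3 and Mif, for 6 of 9.

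Between the hypoxic groups the members had a median difference of 0.17 (chronic minus acute, log2) beside 0.14 for all genes, and 0.02 beside 0.003 after rescaling. None of the 9 passed in limma with no block, where 0.695% of all genes did and 0.55% were called higher. At an unadjusted p under 0.05 there was 1, Mif, beside 20.8% of all genes. The groups did not overlap for Mif alone, against 22.3% of all genes, and 2 members, Narf and Mif, were higher in all 3 codes, against 43.5%. With the block, for which titles and codes give the same pairs, Mif alone rose, beside 12.1% of all genes called higher, and likewise with rescaling added, beside 4.76%. Rescaling with no block gave 0 of 9, beside 0.289% called higher and 0.415% lower. Without code Z Ankrd37, Ndrg1 and Mif passed, beside 12.8%. Both comparisons with standard oxygen share its 3 libraries, so their values stand side by side without a test of likeness.

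**Figure D2:**
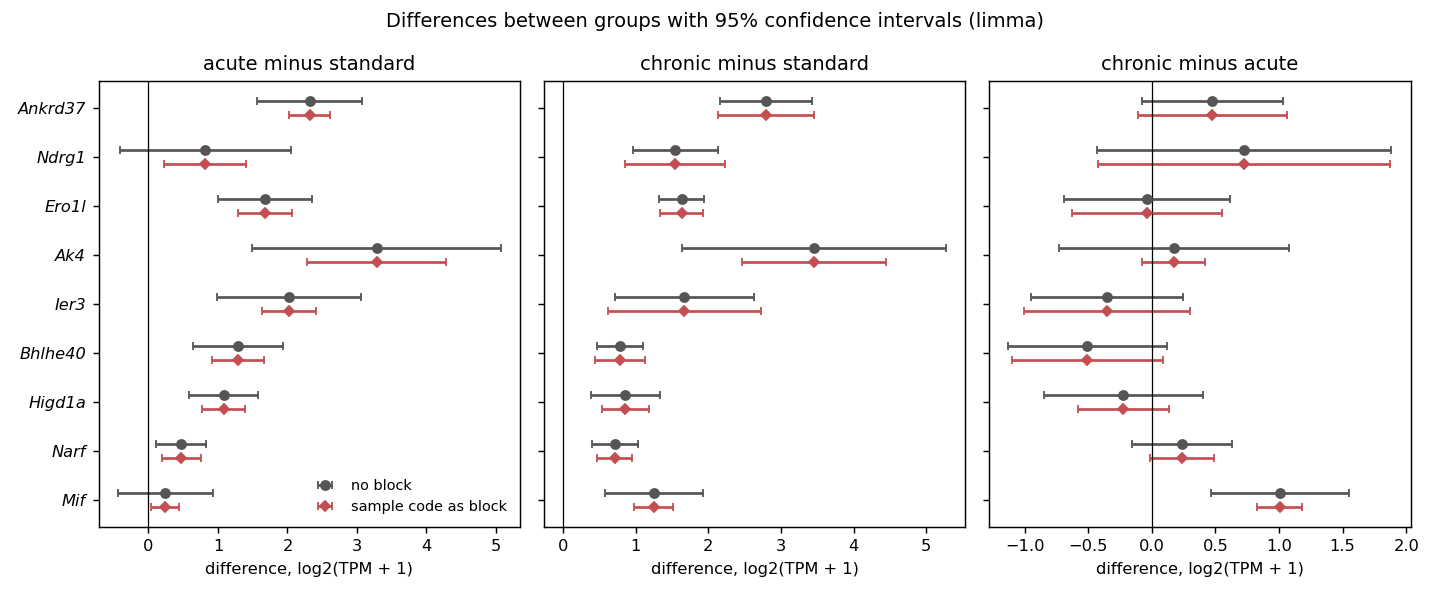
Differences between groups for the 9 tested members on the log2(TPM + 1) scale, with 95% confidence intervals from limma, in grey with no block and in red with the sample code as a block. In the comparison of chronic with acute hypoxia the intervals of Mif alone lie wholly above 0 in both fits, around a difference of 1.00.

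Ero1l encodes an oxidase of the endoplasmic reticulum that re-oxidizes protein disulfide isomerase, a step of disulfide bond formation in secreted proteins. The gene lies at chr14:45283087-45318771 on the minus strand (GRCm38, GENCODE M21). In standard oxygen its libraries of codes X, Y and Z were at 72.03, 67.6 and 88.2 TPM. In acute hypoxia they were at 193.7, 192 and 383 TPM, and in chronic hypoxia at 256, 229 and 224 TPM. Every hypoxic library lay above every standard oxygen library by a wide margin, and the acute library of code Z stood far above the rest. The acute difference was 1.67 ± 0.281 (log2, SE), with a limma adjusted p of 0.145 with no block, 0.0299 with the code block and 0.00409 without code Z. The chronic difference was 1.63 ± 0.129 (log2, SE), with a limma adjusted p of 0.0077 with no block, 0.0882 with the title block, 0.0505 without standard oxygen replicate 1 and 0.0654 without chronic replicate 2. Chronic and acute hypoxia differed by -0.04 (95% interval -0.69 to 0.61), and without the libraries of code Z by 0.33.

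Ankrd37, an ankyrin repeat protein gene long used as a marker of hypoxia, lies at chr8:45996902-46005707 on the minus strand. Its values in codes X, Y and Z were 13.97, 22.7 and 29.2 TPM in standard oxygen. They reached 86.5, 97.3 and 153.9 TPM after 3 hours and 161, 168.5 and 129 TPM after 7 days. Standard oxygen did not overlap with either hypoxic group, while the hypoxic groups overlapped through the code Z libraries. Its acute difference of 2.32 ± 0.314 (log2, SE) had a limma adjusted p of 0.0874 with no block and 0.00871 with the code block. Its chronic difference of 2.79 ± 0.262 (log2, SE) had 0.00955 and 0.00933 in the same order, 0.0906 with the title block, and 0.0672 to 0.0753 without standard oxygen replicate 3 or chronic replicate 1 or 2. Against acute hypoxia it stood 0.48 ± 0.231 higher (log2, SE; limma adjusted p 0.295), and 0.84 with an adjusted p of 0.00776 without code Z. Of the exonic bases of Ankrd37 406 lie across exons of Lrp2bp and Ufsp2 on the opposite strand, and the use of strand in counting is not given in the sources used here. Lrp2bp itself was 0.0515 to 0.132 TPM in standard oxygen and 0.519 to 0.784 TPM in the hypoxic libraries. Ufsp2 was at 53.6 to 62.9 TPM over all libraries, above Ankrd37 in standard oxygen. Reads from the overlapping bases cannot be told apart.

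Ak4, which encodes an adenylate kinase of the mitochondrial matrix, was nearly silent in 2 of the 3 standard oxygen libraries. Codes X, Y and Z were at 0.857, 1.01 and 11.4 TPM there. Under acute hypoxia they were at 26.0, 28.8 and 52.1 TPM, and under chronic hypoxia at 25.3, 36.3 and 61.2 TPM. The lowest hypoxic library was thus above the highest standard oxygen library, and code Z was highest in each group. Acute minus standard was 3.28 ± 0.746 and chronic minus standard 3.45 ± 0.759 (log2, SE), the widest intervals of these contrasts among the members. The limma adjusted p of the acute difference was 0.273 with no block, 0.0547 with the code block and 0.0014 without code Z, where the difference was 3.88. For the chronic difference these were 0.0694, 0.0128 and 0.00138, with 4.02 without code Z. The gene, at chr4:101419277-101466995 on the plus strand, has 9.61% of its transcribed 75-base stretches in common with the pseudogene Ak3l2-ps, which was listed at 0 in all 9 libraries.

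Higd1a encodes a small protein of the inner mitochondrial membrane that associates with the respiratory chain. Its libraries of codes X, Y and Z were at 21.6, 23.7 and 26.3 TPM in standard oxygen. Acute hypoxia gave 40.9, 47.3 and 70.9 TPM and chronic hypoxia 32.5, 53.0 and 49.5 TPM. Every hypoxic value exceeded every standard oxygen value. The differences were 1.08 ± 0.208 in acute and 0.86 ± 0.198 in chronic hypoxia (log2, SE). Limma adjusted p-values with no block were 0.208 and 0.0778, and with the code block 0.0482 and 0.0194. Rescaling with the block moved them to 0.0646 and 0.0357. The gene (chr9:121848563-121858362, minus strand) shares 6.07% of its 75-base stretches with the pseudogenes Gm9790 and Gm14925, of which Gm9790 was listed at 7.81 TPM in the standard oxygen library of code Z and at 0 in the other 8.

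Bhlhe40 encodes a basic helix-loop-helix repressor that acts in the circadian clock and in cytokine control of immune cells. It lies at chr6:108660629-108666925 on the plus strand and shared no 75-base stretch with another listed gene. Standard oxygen libraries of codes X, Y and Z were at 20.4, 18.2 and 24.0 TPM. Acute ones were at 44.5, 39.6 and 80.1 TPM, and chronic ones at 35.6, 39.8 and 33.9 TPM. Both hypoxic groups lay wholly above standard oxygen, and the 3 chronic libraries were close together. The acute difference was 1.29 ± 0.269 (log2, SE), with a limma adjusted p of 0.232 with no block, 0.0494 with the code block and 0.065 when rescaling was added. The chronic difference of 0.78 ± 0.133 (log2, SE) passed with no block (limma adjusted p 0.0406) and with the code block (0.025), not with rescaling (0.071) or the title block (0.137), nor without standard oxygen replicate 1 or 3 or chronic replicate 1 or 2 (0.131 to 0.184). Chronic minus acute was -0.51 with a 95% interval of -1.13 to 0.12.

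Rora, a nuclear receptor that drives clock genes (chr9:68653786-69388246, plus strand), was the lowest member. Codes X, Y and Z were at 0.821, 1.12 and 0.205 TPM in standard oxygen. They were at 0.749, 0.807 and 0.847 TPM in acute hypoxia and at 0.771, 1.57 and 0.302 TPM in chronic hypoxia. The 3 groups overlapped, and the gene fell below the filter on low values in every comparison, so it was not tested. The low standard and chronic values both came from code Z, where Rora was 0.211 and 0.257 times the mean of the other 2 libraries. Without code Z it passed the filter against chronic hypoxia, with a difference of 0.12 and a limma adjusted p of 0.784.

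Ier3, an immediate early gene whose product modulates cell survival and NF-kappaB signalling, had a chronic difference that varied between codes. Its standard oxygen libraries of codes X, Y and Z were at 16.3, 15.2 and 44.0 TPM. In acute hypoxia these were 77.2, 77.9 and 134.9 TPM and in chronic hypoxia 86.1, 75.3 and 59.6 TPM. Within codes the chronic difference was 2.33 and 2.24 for X and Y but 0.43 for Z (log2). The acute differences of 2.18, 2.29 and 1.59 were closer to each other. Over all codes the acute difference was 2.02 ± 0.433 (log2, SE), with a limma adjusted p of 0.248 with no block, 0.0175 with the code block and 0.0015 without code Z. The chronic difference was 1.67 ± 0.4 (log2, SE), with 0.0826, 0.0519 and 0.00138 in the same order, and 2.29 without code Z. Ier3 (chr17:35821684-35822923, plus strand) shared no stretch with another gene.

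Ndrg1, named as a gene downstream of N-myc and known for responses to stress and differentiation, lies at chr15:66929318-66969640 on the minus strand. In standard oxygen codes X, Y and Z gave 16.4, 15.7 and 28.2 TPM. Acute hypoxia gave 22.3, 23.3 and 81.1 TPM, and chronic hypoxia 64.6, 64.0 and 48.1 TPM. With codes X and Y the large step was between 3 hours and 7 days, and with code Z it was already present at 3 hours. The acute groups overlapped, with a difference of 0.82 ± 0.515 (log2, SE) and limma adjusted p-values of 0.907 with no block and 0.241 with the code block. The chronic difference was 1.54 ± 0.244 (log2, SE), with a limma adjusted p of 0.0365 with no block, 0.0253 with the code block, 0.121 with the title block, and 0.124 to 0.169 without standard oxygen replicate 1 or 3 or chronic replicate 1 or 2. Chronic minus acute was 0.72 ± 0.484 (log2, SE) with a limma adjusted p of 0.438, and 1.46 with an adjusted p of 0.0026 without code Z, where 12.8% of all genes were called higher.

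Narf encodes a nuclear protein that recognizes prelamin A, and had the narrowest spread relative to its mean of the members in standard oxygen. Codes X, Y and Z were at 8.004, 8.22 and 8.93 TPM there. They were at 10.7, 10.9 and 14.8 TPM in acute and at 12.5, 14.4 and 16.2 TPM in chronic hypoxia. Chronic hypoxia was the highest of the 3 groups within each code. The acute difference of 0.47 ± 0.15 (log2, SE) did not pass in limma with no block (adjusted p 0.527) or with the code block (0.174). The chronic difference was 0.71 ± 0.132 (log2, SE), with a limma adjusted p of 0.0494 with no block, 0.0164 with the code block, 0.0571 with rescaling, 0.181 with the title block and 0.052 to 0.201 with any 1 of the 6 libraries left out. Narf lies at chr11:121237253-121255856 on the plus strand.

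Mif, which encodes the secreted cytokine macrophage migration inhibitory factor, was the most abundant member and the 1 whose chronic libraries lay above both other groups. Codes X, Y and Z were at 625.7, 590.6 and 1115 TPM in standard oxygen. Acute hypoxia gave 806, 736.5 and 1154 TPM, and chronic hypoxia 1656, 1499 and 2237 TPM. All chronic libraries lay above all others, while standard oxygen and acute hypoxia overlapped. The acute difference was 0.24 with a 95% interval of -0.44 to 0.93 with no block and of 0.04 to 0.45 with the code block, where the limma adjusted p was 0.287. The chronic difference against standard oxygen was 1.25 ± 0.28 (log2, SE), with a limma adjusted p of 0.0727 with no block, 0.00842 with the code block and 0.00183 without code Z. Against acute hypoxia it was 1.00 ± 0.226 (log2, SE), with 0.0895, 0.00707 and 0.00539 in the same order. Mif (chr10:75859353-75860240, minus strand) shares 26.4% of its 75-base stretches with the pseudogene Gm10169, which was listed at 0 to 5.25 TPM. How the authors counted reads that fit several genes is not given in the sources used here, so the level of Mif is uncertain to that extent.

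**Figure D3:**
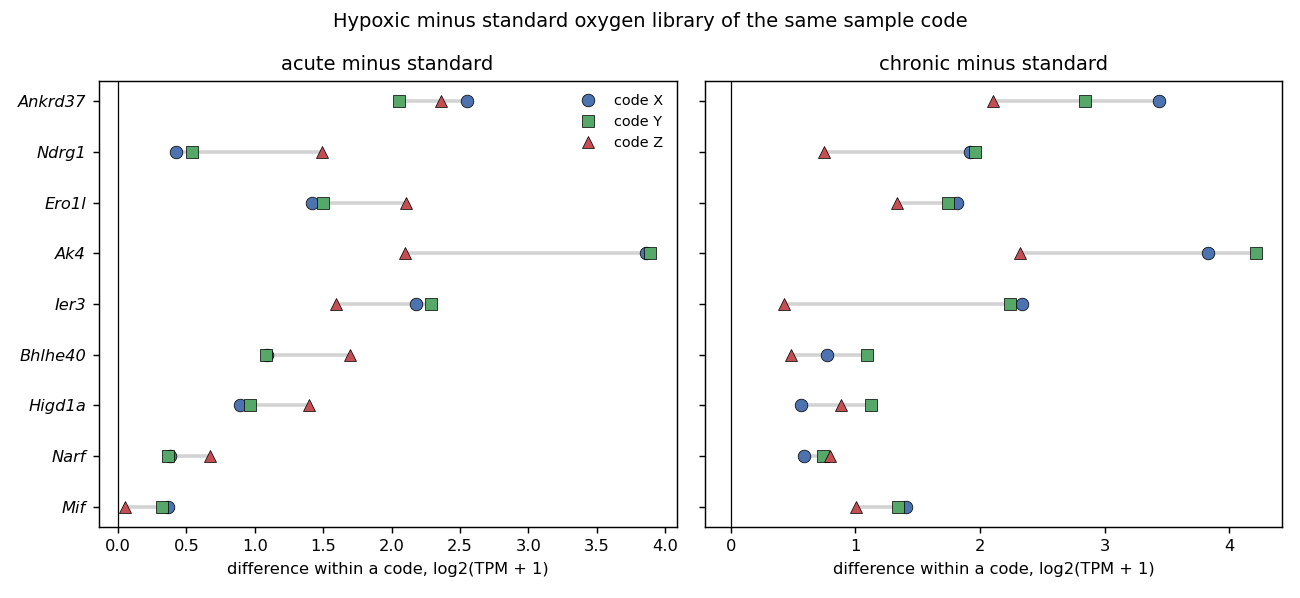
Difference between each hypoxic library and the standard oxygen library of the same code for the 9 tested members (log2(TPM + 1) scale), with a marker per code. All points lie above 0, and code Z is the highest acute point for Ndrg1 (1.49), Ero1l (2.10) and Bhlhe40 (1.70) but the lowest chronic point for these genes. Code Z is also the highest acute point for Higd1a (1.39) and Narf (0.67), where its chronic point is the middle (0.88) and the highest (0.80).

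The code Z libraries thus carried different member levels from the rest, in a way that depended on the exposure. In standard oxygen 9 of 10 members were highest with code Z, and in acute hypoxia 10 of 10. Of 11065 genes with a mean of at least 1 TPM, 57.8% and 55.4% were highest with code Z in these groups. In chronic hypoxia 3 of 10 members (Ak4, Narf and Mif) were highest with code Z and 6 were lowest, beside 54.7% and 28.6% of genes. The acute code Z library held 3.56 times the mean of the other 2 for Ndrg1 and 1.98 times for Ero1l, and the chronic one 0.748 and 0.923 times. With 1 library of this code in each group these differences have no replicates and were not tested.

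Genes related to the members by family or only by name, called relatives here, were read in the same libraries. Ier2 and Ier5 were listed for the name they share with Ier3, and not as its paralogs. Of 23 relatives 14 were tested, and 0 passed in limma with no block in either comparison with standard oxygen. Of all genes 0.0273% did in acute and 2.69% in chronic hypoxia, and in acute hypoxia the members gave 0 of 9 too. At an unadjusted p under 0.05 there were 0 relatives in acute hypoxia, beside 7.14% of all genes, and 3 in chronic, beside 22.9%. Between the hypoxic groups 0 passed as well, beside 0.695% of all genes, with 2 at an unadjusted p under 0.05, beside 20.8%. With the code block 1 of 14, Ier5, rose (0.48, limma adjusted p 0.0205), beside 12.1% of all genes called higher. Adding rescaling to this block left 0 higher, beside 4.76%, and 1 lower, beside 554 of 11081 genes. The median difference of the relatives was -0.04 in acute and 0.04 in chronic hypoxia (log2), the latter becoming -0.13 after rescaling. Ero1lb, the second endoplasmic reticulum oxidase gene, differed by -0.21 ± 0.103 in acute and 0.17 ± 0.155 in chronic hypoxia (log2, SE). Bhlhe41, the paralog of Bhlhe40, was at 76.1 TPM in standard oxygen, 77.6 in acute and 88.4 in chronic hypoxia on average. Among the adenylate kinases Ak1, Ak3, Ak6 and Ak8 the acute differences ran from -0.20 to 0.14 and the chronic ones from -0.55 to 0.24 (log2).

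Narfl, related to Narf, had differences of 0.07 in acute and 0.23 in chronic hypoxia, Ndrg4 of 0.08 and -0.46, and Ier5 of -0.24 and 0.24 (log2). Ddt, the D-dopachrome tautomerase related to Mif, had a chronic difference of -0.16 ± 0.138, and Higd2a of -0.11 ± 0.135 (log2, SE). Ier2, an immediate early gene, was the relative with the highest chronic difference, 1.05 ± 0.319 (log2, SE). Its limma adjusted p was 0.126 with no block, 0.0495 with the code block and 0.0882 with rescaling added, and it was the 1 relative of 14 called higher with this block, beside 15.1% of all genes. Ndrg3 and Ak3 had chronic differences of -0.31 and -0.30, with limma adjusted p-values of 0.0617 and 0.0626 with the code block and of 0.0333 and 0.0315 with rescaling added. The difference between a member and its relative was not tested.

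**Figure D4:**
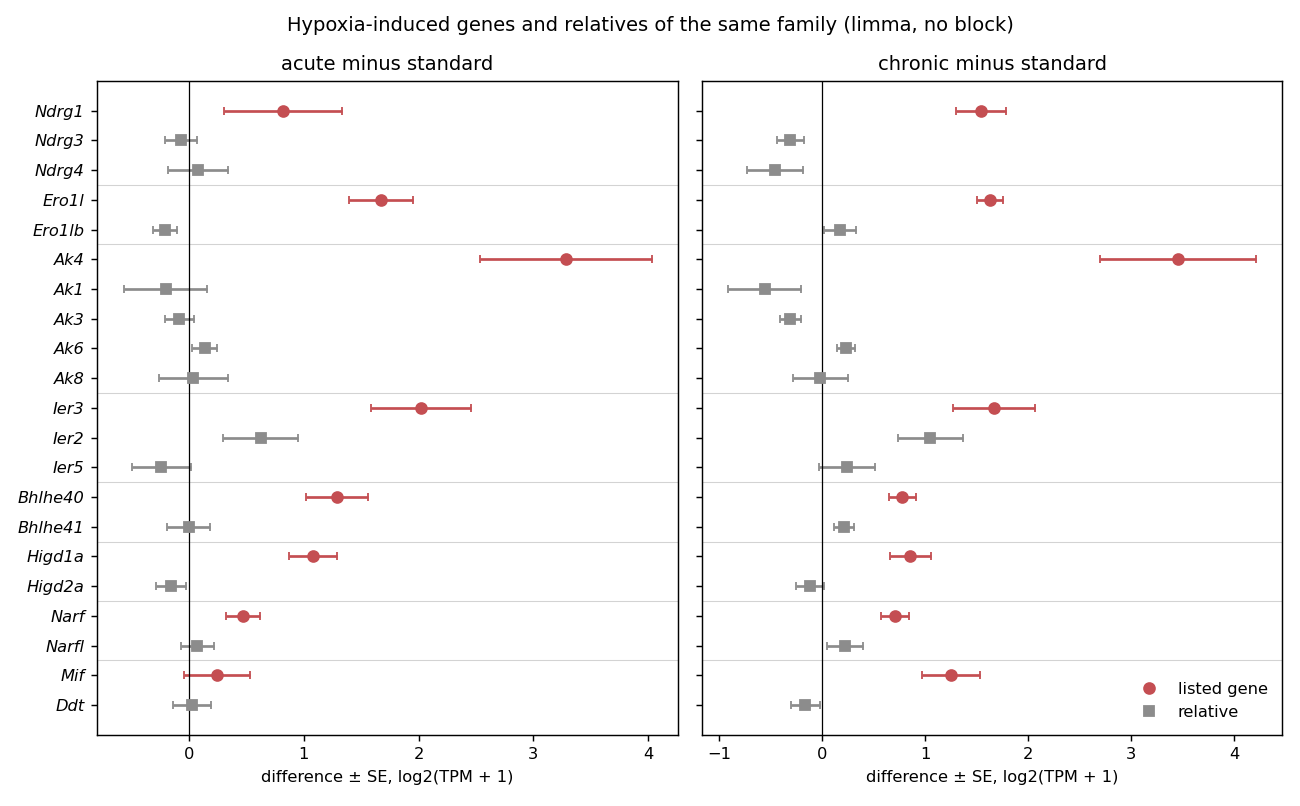
Differences from standard oxygen (log2(TPM + 1) scale, SE, limma with no block) for 8 members as red circles, each above its relatives by family or name as grey squares. Ier2 reaches 0.62 in acute and 1.05 in chronic hypoxia, and the other relatives lie between -0.55 and 0.24 in both comparisons.

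A list of 35 further genes that low oxygen is known to induce outside glycolysis was read beside the members. Like them, it was chosen with earlier results of these data known. In acute hypoxia 30 were tested, 26 were higher and 21 lay wholly above standard oxygen, beside 7.63% of all genes, with a median of 0.79 (log2). Hilpda and Mxi1 rose in limma with no block, 2 of 30 beside 0.0182% of all genes, and not with the title block (adjusted p 0.387 and 0.431). With the code block 11 of 30 rose, beside 0.655%, among them the prolyl hydroxylase gene Egln3 (3.24, limma adjusted p 0.00814) and the mitophagy receptor gene Bnip3 (2.21, 0.00814). Without code Z 17 of 29 rose, beside 2.07% of all genes. In chronic hypoxia 31 were tested, with a median of 0.73 (0.57 after rescaling), and 12 rose in limma with no block, beside 2.1% of all genes. After rescaling 8 of 31 passed, beside 0.986%, and none of the 12 passed with the title block (limma adjusted p 0.0882 to 0.178). The highest of the 12 were Egln3 (5.16), Bnip3 (2.73), the secreted glycoprotein gene Stc2 (2.39) and Egln1 (1.55, all log2). With the code block 20 rose, beside 15.1% of all genes, and 1, the haem oxygenase gene Hmox1 (-0.51, limma adjusted p 0.0172), fell, beside 3.3% of all genes called lower. Car12, Ppp1r3c, Tmem45a and Vldlr were below the filter in each comparison.

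Between acute and chronic hypoxia this list split. In limma with no block Stc2 (2.00, adjusted p 0.0382) and Pdk1 (0.68, 0.0448) rose, and Hilpda (-1.73, 0.0194) and Hmox1 (-1.21, 0.0493) fell, beside 0.55% of all genes called higher and 0.144% called lower. Rescaling left Stc2 and Hilpda past the threshold, beside 0.289% of all genes called higher and 0.415% called lower. It ended the calls of Pdk1 (limma adjusted p 0.0753) and Hmox1 (0.0524). With the code block 5 rose and 6 fell, the latter including Hilpda and Hmox1, beside 12.1% of all genes called higher and 3.42% called lower. Among the members no gene fell between the exposures in either fit, and Bhlhe40 had the lowest value (-0.51). The median of the list was 0.07 and of the members 0.17, beside 0.14 for all genes.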

How the data were processed

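Transcripts of 9 libraries of mouse primary macrophages were measured by mRNA sequencing (75 bases, paired ends, per the labels' protocols). The authors deposited 3 tables of TPM, 1 for each pair of groups, with 6 samples each. FastQC, STAR, featureCounts and GRCm38 are named in the submitters' processing notes, without versions. The annotation, the handling of reads that fit several genes and the step to TPM are not given in the sources used here. Columns summed to 1000000, and the 9 samples had identical values in both tables that held them. TPM keeps no depth, so no counting error could be given, and replicate spread is the only error. Symbols were matched for 34582 of 34866 identifiers. Positions and transcripts came from GENCODE M21 (GRCm38).

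Each comparison was fitted on its 6 samples with limma 3.58.1 in R 4.3.3 (eBayes with trend, two-sided) on log2(TPM + 1), for genes with a mean of at least 1 TPM. Benjamini-Hochberg adjustment ran over all genes tested, and calls were made under 0.05. The fit was run on simulated data with the same independent noise for every gene and no effect of the code. These libraries differ from that setting, so the run does not show how the fit performs on them. P-values set a difference against the spread between these samples, and that spread may be partly technical.

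Blocks by title number and by sample code were alternatives. Deviations from the group means of same-code samples correlated with r of 0.375 to 0.631 in every pair. Code Z stood apart, so within a group X and Y both deviate away from it. These r show that the code Z libraries go together, and cannot show whether X and Y are matched rightly. A swap of X and Y was not computed. For the title number r was -0.508 to 0.395 in the comparisons with standard oxygen. The other alternatives were pseudocounts of 0.1 and 5, no filter, a mean of at least 5 TPM, no trend, median-of-ratios rescaling, all 9 samples in 1 fit, code block with rescaling, each replicate left out, and no code Z libraries.

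All 10 members are named. From each list the called genes with the largest differences are named, up to 4 per comparison, and the tested relatives; some results under this rule are not reported here. The genes most like a member were the 3 with the highest Pearson r over 9 libraries among genes with a mean of at least 10 TPM. Members and lists were chosen with earlier results of these data known.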

Additional observations from a re-analysis of the deposited data

How the results depend on the processing

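The 9 tested members kept the direction of their difference from standard oxygen in every alternative run. In all, 6 chronic minus acute differences reversed, none of them past the threshold: Ero1l to 0.33 and Ier3 to 0.053 without code Z, Ero1l to 0.29 and Higd1a to 0.00083 without acute replicate 3, and Ak4 to -0.02 without acute replicate 1 and to -0.16 without chronic replicate 3. With single replicates left out Ero1l ran from -0.21 to 0.29, Ak4 from -0.16 to 0.47 and Higd1a from -0.39 to 0.00083. The cause was not tested.

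Counts of calls moved with the setting. For acute hypoxia against standard oxygen, all genes went from 3 to 5 without the trend, 21 with rescaling, 25 with all 9 samples, 0 with the title number as replicate block (579 at an unadjusted p under 0.05 in limma), 78 with the code as replicate block, 60 with that block and rescaling, and 319 without code Z. The members went from 0 to 1, with rescaling, 2 with all 9 samples, 5 with the code block, 3 with the block and rescaling, and 6 without code Z. For chronic hypoxia against standard oxygen, all genes went from 298 to 120 without a filter, 166 without the trend, 770 with all 9 samples, 1 with the title block, 2039 with the code block, 1274 with the block and rescaling, and 2300 without code Z. The members went from 5 to 2 without a filter, 2 without the trend, 3 with rescaling, 0 with the title block (9 at an unadjusted p under 0.05 in limma), and 8 with the code block or without code Z. For chronic against acute hypoxia, all genes went from 77 to 7 without a filter, 25 without the trend, 417 with all 9 samples, 1724 with either block, 1081 with the block and rescaling, and 1788 without code Z. The members went from 0 to 1 with either block, with or without rescaling, and to 3 without code Z. Leaving out single replicates gave 0 to 33, 1 to 522 and 1 to 308 genes, and 0 to 2, 0 to 7 and 0 to 1 members, in the order of these comparisons. Without code Z each group has 2 libraries. Over members and alternatives, 376 of 459 differences kept their direction and side of the threshold, 41 newly passed, 36 no longer passed and 6 reversed. The unknown depth limits what can be said of Rora.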

Other observations

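A list of 18 genes of protein folding in the endoplasmic reticulum, where Ero1l acts, was read in each comparison. Beside disulfide isomerases and other oxidative folding genes it held the chaperone genes Hspa5, Hsp90b1, Calr and Canx and the stress gene Ddit3. Of the list's 18 genes 17 were tested, and 0 passed in acute hypoxia against standard oxygen in limma with no block, beside 0.0273% of all genes. Ero1l itself did not pass in that fit (limma adjusted p 0.145). At an unadjusted p under 0.05 there were 0 of the 17, beside 7.14% of all genes, and the list's median was 0.00 (log2). In chronic hypoxia Prdx4, a peroxiredoxin of the endoplasmic reticulum (0.93), and the disulfide isomerase genes Pdia4 (0.87) and Txndc5 (0.58) rose. Their limma adjusted p-values were 0.0362, 0.0272 and 0.0366, and 3 of 17 stand beside 2.1% of all genes called higher. After rescaling 1 of the 17, Prdx4, passed, beside 0.986% of all genes called higher. None of the 3 passed with the title block (limma adjusted p 0.136 to 0.178). With the code block 10 rose, beside 15.1% of all genes, and 1, Qsox1 (-0.48, limma adjusted p 0.02), fell, beside 3.3% called lower. The list's median in chronic hypoxia was 0.49, or 0.31 after rescaling, beside 0.16 and 0.003 for all genes. Against acute hypoxia Pdia4 (1.03) and Pdia6 (0.91) rose, with limma adjusted p-values of 0.0456 and 0.0479, beside 0.55% of all genes. After rescaling Pdia6 passed (limma adjusted p 0.0446), beside 0.289% of all genes called higher, and Pdia4 did not (0.0693). Ero1l itself differed by -0.04 before rescaling.

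Clock genes, the setting in which Bhlhe40 and Rora are known to act, gave 0 calls among 13 tested in each comparison in limma with no block. Of all genes 0.0273% were called in acute and 2.69% in chronic hypoxia against standard oxygen, and 0.695% between the hypoxic groups. By unadjusted p under 0.05 there were 2, 3 and 2 clock genes in that order, beside 7.14%, 22.9% and 20.8% of all genes. Under the code block Nfil3 (1.67), Per3 (0.73) and Dbp (0.66) rose in chronic hypoxia against standard oxygen, with limma adjusted p-values of 0.0191, 0.0391 and 0.0181. These are 3 of 13 beside 15.1% of all genes called higher in that fit. Dbp and Per3 also rose against acute hypoxia (1.12 and 0.68), 2 of 13 beside 12.1%. Both shares are near those of all genes. Per3 did not pass in either comparison once rescaling was added. Of the receptor genes known for Mif, Cd44 rose in acute hypoxia with the code block (0.64, limma adjusted p 0.0439), 1 of 3 tested beside 0.655% of all genes. From acute to chronic hypoxia Cd44 (-0.54) and Cxcr4 (-0.63) fell with the block, with limma adjusted p-values of 0.0129 and 0.033. These are 2 of 3 beside 3.42% called lower. Cd74 had differences of -0.06 in acute and 0.34 in chronic hypoxia against standard oxygen and passed in neither fit.

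As a description over 9 libraries that share groups and codes, the genes most like some members by Pearson r among 7098 genes were as follows. Ankrd37 was closest to Bnip3 (0.992), Egln1 (0.986) and Ube2z (0.985), and Ero1l to Kdm3a (0.983), Atg4c and Eif4ebp1 (both 0.98). Ak4 was closest to the lactate transporter gene Slc16a3 (0.999), Gpr35 and Klf10 (both 0.997). Mif was closest to Tuba1b (0.997), the cyclin gene Ccna2 (0.993) and Tubb5 (0.99). Among the members Ero1l and Ankrd37 had the highest r with each other (0.957), Mif and Bhlhe40 reached 0.376, and Rora stayed between -0.286 and 0.154 with the other 9.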
